A study of Mus musculus with 9 samples.

Results

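Probe pairs whose sequences match opposite strands of a shared stretch were read on 1-colour arrays of mouse aorta. A pair was formed when 1 probe of 60 bases shared a run of at least 30 bases with the reverse complement of another. Both probes had to be called well above background on 3 or more of 9 arrays, and each had to have exactly 1 such partner. This left 477 pairs, or 954 probes, of 878 opposite-strand pairs with both probes above background and of 2378 opposite-strand pairs on the array. Another 401 pairs were left out because a probe had a second partner. The array holds 91188 probes, of which 43948 met that detection rule.

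The study divided 24 male C57BL/6J mice into 3 groups of 8. ND mice had a normal diet, HF mice a high fat diet, and HE mice the high fat diet with exercise training, given in the labels as 60 minutes, and all groups ran for 12 weeks. All mice were fasted overnight before the aorta was taken. Each group has 3 arrays of total aorta RNA. The labels do not say which animal or how many animals each array holds, so the p-values below measure the spread between arrays. The files name no gene for a probe. A list of 41 marker genes was fixed for this work, of cell types of the aorta and of fat, other muscle and blood. None had a probe matching its start window (28 have such a window), so the tissue was not checked against its markers. The slide that an array sat on overlaps with the groups. All ND arrays shared a slide with HF replicate 1. HF replicates 2 and 3 shared another with HE replicates 1 and 2, and HE replicate 3 was alone on its slide.

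Many mammalian loci are transcribed from both strands. An antisense RNA starts within or beyond a gene and runs against it, and at many promoters a second RNA leaves the start site in the other direction. Such RNAs can overlap the gene's own RNA, and some are known to act on the chromatin or the RNA of the opposite strand. On this platform the labelled cRNA is complementary to the RNA, so each probe reads RNA of its own sequence. A pair therefore gives 1 reading for each strand of the shared sequence. Most pairs were not placed on the genome, so it is not known whether their 2 probes read 1 locus. The level used throughout is a probe's log2 signal minus its array's 75th percentile, over all probes. The 2 probes of a pair can bind their targets unequally, so a difference in level between strands is a ratio of signals and not of RNA molecules.

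The 5 pairs below are examples of what was measured. Capitals mark the bases that the probes share as reverse complements, and each sequence is written 5′ to 3′ as on the array. The first is the pair with the largest mean level difference among pairs with both probes above background on all 9 arrays, and the second is the next largest.
A_30_P01021199: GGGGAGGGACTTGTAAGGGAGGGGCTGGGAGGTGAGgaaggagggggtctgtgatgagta
A_30_P01032051: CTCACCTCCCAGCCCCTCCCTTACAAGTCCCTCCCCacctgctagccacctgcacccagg
A_30_P01025172: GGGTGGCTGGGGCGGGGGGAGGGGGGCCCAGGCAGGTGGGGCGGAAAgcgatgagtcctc
A_30_P01031264: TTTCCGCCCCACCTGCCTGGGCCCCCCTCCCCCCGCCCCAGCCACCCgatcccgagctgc
In both, the probe rich in G bases was the dim one and the probe rich in C bases was the bright one. The third pair lies at the start of Gm14636, a long noncoding RNA. It had the third largest difference among pairs with both probes above background on all 9 arrays.
A_30_P01020476: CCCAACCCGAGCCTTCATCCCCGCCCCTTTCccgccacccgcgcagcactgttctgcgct
A_30_P01025131: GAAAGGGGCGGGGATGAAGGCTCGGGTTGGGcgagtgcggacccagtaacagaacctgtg
The fourth lies between the starts of Tug1 and Morc2a, and its strands were nearly level.
A_30_P01022792: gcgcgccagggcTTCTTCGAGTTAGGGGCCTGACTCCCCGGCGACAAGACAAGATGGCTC
A_30_P01023757: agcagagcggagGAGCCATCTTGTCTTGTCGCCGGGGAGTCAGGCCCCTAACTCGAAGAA
The fifth had 1 of the smallest p-values for a strand difference that varied between groups.
A_30_P01032092: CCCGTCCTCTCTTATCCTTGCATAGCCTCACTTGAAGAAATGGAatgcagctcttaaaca
A_30_P01033360: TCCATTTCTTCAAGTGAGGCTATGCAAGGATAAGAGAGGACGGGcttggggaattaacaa

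The shared stretch was 30 to 60 bases long, with a median of 45 bases and quartiles of 37 and 54. All 60 bases were shared by 33 pairs and exactly 30 by 13. Probes with names starting A_30_P supplied both members of 373 pairs, or 78.2%, and 10.8% of the tested probes of that name series were members, against under 1% of every other series. The median GC content of member probes was 45%, against 43.3% over all tested probes. A CG dinucleotide was present in 53.1% of member probes and in 48.8% of all tested probes. The hexamer AATAAA, the usual signal for RNA cleavage and polyadenylation, was searched on the probe's own strand. It was present in 16 of the brighter and 20 of the dimmer probes (3.35% and 4.19%), and in 10.6% of all tested probes.

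Detection of both strands was less frequent for opposite-strand pairs than for overlapping probes on the same strand. Of all 2378 opposite-strand pairs on the array, 36.9% had both probes detected by the same rule, 38.1% had 1 and 25% had none. Of the 5286 same-strand pairs, 57.0% had both and 8.30% had 1. With probes of a single partner only, counted here over all probes of the array rather than the detected ones, 472 of 1751 opposite-strand pairs (27.0%) had both and 773 (44.1%) had 1, against 40.9% and 10.4% of 3139 same-strand pairs. These shares were not tested against each other.

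Among the 477 pairs, 261 had both probes above background on all 9 arrays, 188 had 1 such probe and 28 had none. The number with both detected on an array was 461, 404 and 427 in ND replicates 1 to 3, 331, 423 and 439 in HF, and 430, 282 and 445 in HE. HF replicate 1 and HE replicate 2 were therefore the lowest of their groups, and the groups overlapped. Those 2 arrays were also lowest over all tested probes, with 85.2% and 75.3% detected against 89.6% to 97.3% on the others. The rule let in 30 probes detected on exactly 3 arrays, with a median mean level of -2.34. The 33 probes just outside it, detected on exactly 2 arrays with a partner on 3 or more, had a median of -2.43. A probe that passed through 1 group alone had to differ between groups. Detection on 0 of 3 arrays of some group was seen for 38 of the 954 probes.

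The 2 strands of a pair stood far apart in level. The mean difference over the 9 arrays had a median size of 1.98 on the log2 scale, with quartiles of 0.96 and 3.29 and a maximum of 10.63. The strands were within 2-fold of each other in 126 pairs (26.4%), 2-fold to 8-fold apart in 207 (43.4%) and over 8-fold apart in 144 (30.2%), including 24 over 64-fold. The same strand was the brighter on all 9 arrays in 411 pairs (86.2%). The median size on single arrays ran from 1.87 to 2.10, so no array stood apart. The median level of the brighter strand was 1.40 and that of the dimmer was -0.88.

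Overlapping probes of the same strand gave a different picture. Over 1309 pairs chosen by the same rule on the same strand, the median size of the difference was 0.34, and 79.5% were within 2-fold. Across pairs, the level of 1 probe and that of its partner correlated at r = 0.87 on the same strand and at r = 0.01 on opposite strands (each pair entered in both orders). These are descriptions over pairs, which share arrays and probe design and are not replicates. The 33 pairs sharing all 60 bases, whose probes are exact reverse complements with the same GC content and length, had a median difference of 2.22. Among opposite-strand pairs of any overlap, the median was 1.83 with both probes above background on all 9 arrays. It was 1.28 over those pairs, detected on all arrays or not, with a normexp background correction that adds an offset of 50.

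**Figure D1:**
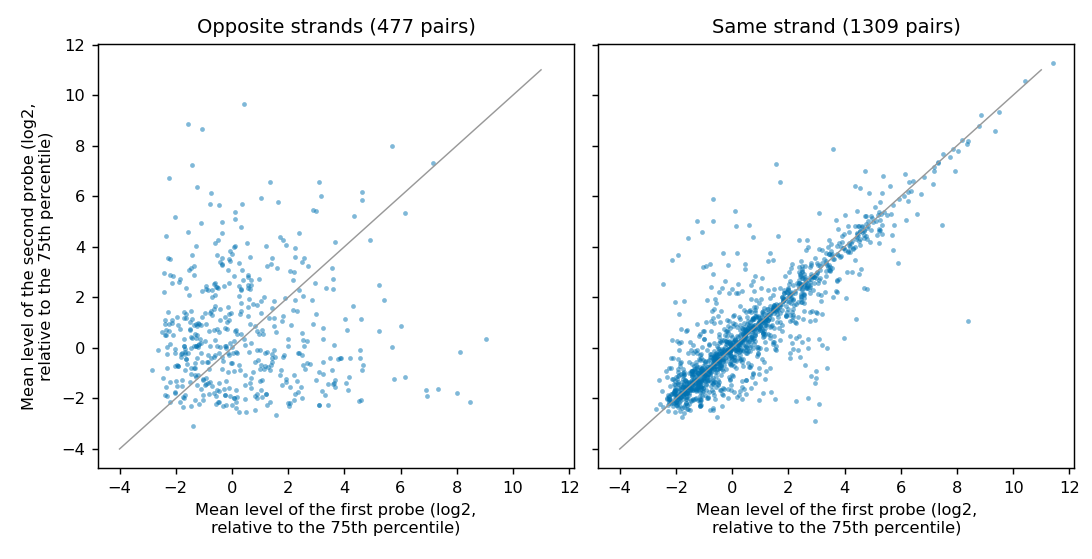
Mean level over 9 arrays (log2, scaled to each array's 75th percentile) of the first probe of each pair against the second, for 477 opposite-strand pairs on the left and 1309 same-strand pairs on the right, with the line of equal level. The opposite-strand points fill the plane (r = 0.01) and the same-strand points follow the line (r = 0.87).

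**Figure D2:**
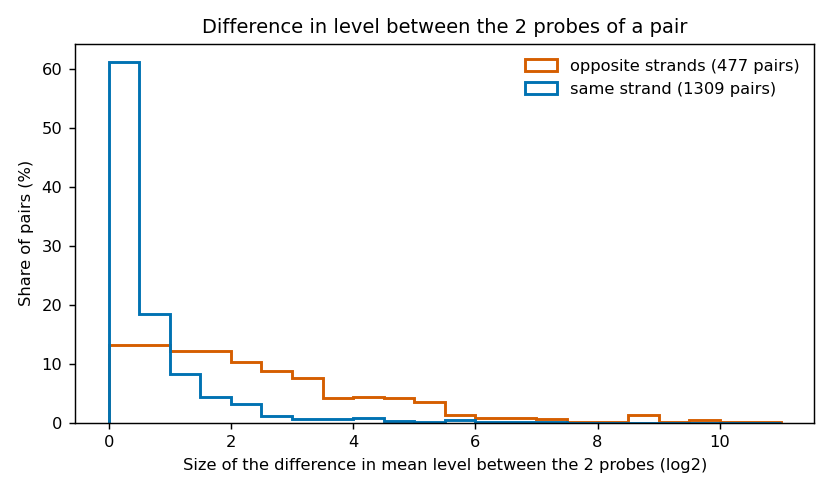
Share of pairs by size of the difference in mean level between the 2 probes (log2, bins of 0.5), for opposite-strand and same-strand pairs. Medians were 1.98 and 0.34.

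In the 5 largest differences among pairs detected on all arrays, the dim strand was still detected throughout. The bright side of the largest pair, A_30_P01032051, read 8.85, 9.27 and 8.87 in ND, 8.52, 8.43 and 8.52 in HF, and 8.34, 8.53 and 8.53 in HE. Its partner A_30_P01021199 read -1.21, -0.55 and -1.13 in ND, -1.13, -0.91 and -1.21 in HF, and -0.97, -0.95 and -1.49 in HE. The bright strand stood above the dim one by 9.71 ± 0.29 (SD, n = 9 arrays), and every ND value of the bright strand was above every HF and HE value. For A_30_P01031264 over A_30_P01025172 the gap was 9.21 ± 0.27. In A_30_P01021357 over A_30_P01026445 and A_30_P01027511 over A_30_P01031286 it was 7.31 ± 0.19 and 7.02 ± 0.42.

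The pairs with the smallest mean differences did not all hold level on single arrays. A_30_P01029492 and A_30_P01030822 had a mean difference of 0.00 with an SD of 0.61 over the 9 arrays, and the first was brighter on 5 of 9. A_30_P01023140 and A_30_P01027838 also averaged 0.00, with an SD of 0.26. A_30_P01021176 and A_30_P01030756 differed by -0.06 ± 0.19, with levels of 0.73 to 0.89 for the first and 0.57 to 1.07 for the second. This last pair had the smallest spread of the 3.

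Base composition moved with the level difference. Because a probe's A and G bases, the purines, become T and C on the other strand, the shared stretch mirrors its purine content between the 2 probes and has the same GC content on both. Over whole probes, the GC content was equal in 194 pairs, higher in the brighter probe in 143 and lower in 140. The brighter probe had fewer purines in 317 pairs (66.5%), more in 133 and an equal number in 27. The median purine share was 46.7% in brighter and 53.3% in dimmer probes. Brighter probes had a median of 26.7% C and 21.7% G, and dimmer probes 21.7% C and 26.7% G. The median GC content was 45% on both sides. Where the 2 probes differed by over 25 percentage points in purines, the probe with fewer was brighter in 66 of 76 pairs (86.8%), with a median size of difference of 3.01. Where they differed by up to 5 points it was brighter in 54 of 93 (58.1%), with a median size of 1.47.

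Across the 477 pairs, the difference in purine share and the difference in level correlated at r = -0.55, computed about 0 because the order of probes is arbitrary. The difference in G alone gave -0.50, in C 0.52, in A -0.29 and in T 0.27. Over all 43948 tested probes the purine share and the mean level correlated at -0.17, and the median level was 0.59 for probes under 45% purine and -0.33 for those over 55%. Among the 954 members the correlation was -0.38. Pairs share arrays and labelling, so these are descriptions. The part of base composition in the strand differences was not tested.

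**Figure D3:**
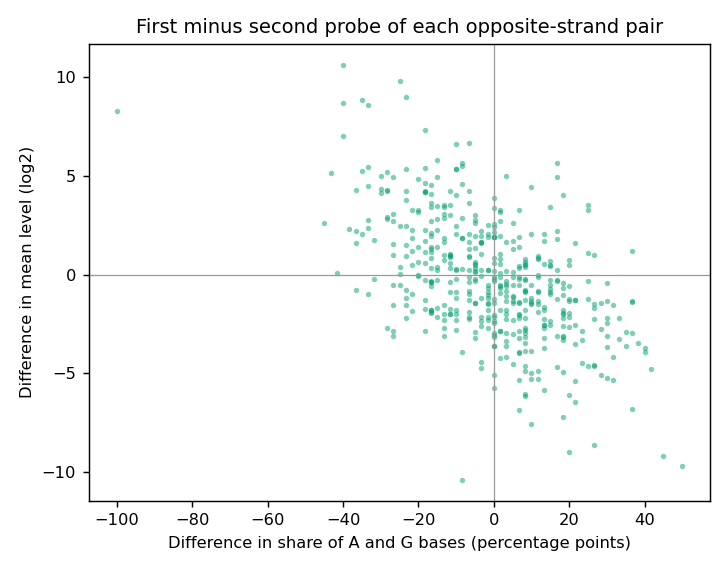
Difference in purine share (first minus second probe, percentage points) against the difference in mean level (log2) for each of the 477 opposite-strand pairs. Points run from upper left to lower right, with r = -0.55 about 0.

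Sequence matches placed some pairs on the genome. RefSeq start windows of the GRCm38.p6 build, each 250 bases before to 50 after a transcription start, were searched for 30 or more bases of each probe on either strand. Of 32851 windows, 1 or more matched 33 of the 954 member probes (3.46%), against 1.87% of all tested probes. They belong to 19 pairs, of which 14 matched at 1 gene and 5 at 4 to 14 genes. The other pairs are given by probe name. None of the 14 matched the list of 43 genes known for an opposite-strand neighbour. The windows cover only starts, so a probe can also match elsewhere. In the 14 pairs, the strand of the gene was the brighter on all 9 arrays in 5, the opposite strand in 7, and neither in 2. The 7 include a repeat pair matched at Gm36551, which has no settled position. At Iqsec1, Eml1, 1110038B12Rik and Gm36551 only 1 probe of the pair matched the window, and the strand of its partner was inferred.

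Of the 5 pairs brighter on the gene's strand, 3 had gaps over 8-fold. At Fbrs, which codes for fibrosin, the pair lies at chr7:127478795-127478855, 163 to 103 bases before 1 annotated start and within the annotated span of the gene. The probe of the gene's strand, A_30_P01029659, read 4.60, 4.92 and 4.53 in ND, 4.47, 4.53 and 4.81 in HF, and 4.37, 4.27 and 4.53 in HE. The opposite probe, A_30_P01032294, read -0.16, -0.07 and -0.22 in ND, -0.05, -0.06 and -0.24 in HF, and 0.06, 0.34 and -0.21 in HE. The gap was 4.63 ± 0.35, and the 3 groups overlapped on both strands. At Fam193a (chr5:34369908-34369980, from 25 bases before the start to 48 after it), A_30_P01017433 of the gene's strand exceeded A_30_P01021714 by 4.25 ± 0.66, with the dim strand above background on 4 of 9 arrays. At 4930522L14Rik (chr5:109751640-109751699), where the probes are exact reverse complements, A_30_P01028392 exceeded A_30_P01020690, above background on 5 of 9 arrays, by 3.24 ± 0.38.

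The remaining 2 had smaller gaps. At Iqsec1, an exchange factor for ARF GTPases (chr6:90810074-90810123, first bases of a transcript), A_30_P01017999 exceeded A_30_P01017841 by 2.17 ± 0.18. At Ipw, a noncoding RNA of the imprinted Prader-Willi region (chr7:59678926-59678970), the pair lies 92 to 48 bases before the start and inside the longer host transcript Snhg14. There A_55_P2152165 exceeded A_30_P01029670 by 1.20 ± 0.42, with HF replicate 2 of A_55_P2152165 at 0.85 and its 8 other values between -0.88 and -0.24.

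The 7 pairs brighter against the gene were led by Gm14636. The pair lies at chrX:19237841-19237929, from 79 bases before the start to 10 after it, and Gm41892, annotated on the other strand, spans it. A_30_P01020476, which reads the strand of Gm41892, was at 9.19, 9.58 and 9.24 in ND, 8.83, 8.75 and 8.84 in HF, and 8.77, 9.21 and 8.93 in HE. A_30_P01025131, which reads the strand of Gm14636, was at 0.21, 0.30 and 0.35 in ND, 0.10, 0.37 and -0.01 in HF, and 0.54, 0.56 and 0.72 in HE. All HF values of the bright strand lay below all ND values, and all HE values of the dim strand lay above all others. For the dim strand HE exceeded HF by 0.45 ± 0.13 (SE, limma, unadjusted p = 0.0081, adjusted p = 0.33), and for the bright strand HF was below ND by 0.53 ± 0.16 (adjusted p = 0.43).

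At Eml1, a microtubule-binding protein (chr12:108371158-108371202, first bases of a transcript), the probe against the gene, A_30_P01028526, exceeded A_30_P01019409, above background on 5 of 9 arrays, by 7.21 ± 0.51. At 1110038B12Rik, a noncoding RNA (chr17:34952419-34952453), A_30_P01022072 exceeded A_30_P01022237 by 4.94 ± 0.30. The gap was 1.62 ± 0.45 at Shoc2 (chr19:53944282-53944355), a scaffold of the Ras to ERK pathway, where Bbip1, a subunit of the BBSome, is annotated on the opposite strand. It was 0.90 ± 0.29 at Numb (chr12:83876763-83876823), an inhibitor of Notch signalling, and 0.78 ± 0.33 at Cpne5 (chr17:29237988-29238040, 250 to 198 bases before the start), a member of the calcium-binding copines. The seventh, A_55_P2075237 over A_55_P2172934 with a gap of 8.27 ± 0.69, is made of TTTC and GAAA repeats. It matched a window at Gm36551 by 30 bases and has no settled position.

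At Tug1 and Bckdhb neither strand was the brighter on all 9 arrays. Tug1, a noncoding RNA, and Morc2a, a chromatin ATPase, start 623 bases apart on opposite strands, and the pair lies at chr11:3648921-3648992, within the 178 bases before the Tug1 start. A_30_P01023757, of the Tug1 strand, read 0.16, 0.50 and 0.29 in ND, 0.19, 0.17 and 0.03 in HF, and 0.41, 0.75 and 0.56 in HE. A_30_P01022792, of the Morc2a strand, read 0.36, 0.42 and 0.46 in ND, 0.23, 0.43 and 0.73 in HF, and 0.62, 0.70 and 0.08 in HE. The strands differed by -0.11 ± 0.32, less than their spread over arrays. On the Tug1 strand every HE value lay above every HF value, by 0.45 ± 0.14 on average (limma, unadjusted p = 0.011, adjusted p = 0.34). At Bckdhb, a subunit of the enzyme complex that breaks down branched-chain keto acids (chr9:83948696-83948755, 85 to 26 bases before a start), mmu_9440_PI428960544 of the gene's strand and mmu_32725_PI428960544 differed by -0.38 ± 0.22. The gene's strand was the higher there on 1 of 9 arrays.

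**Figure D4:**
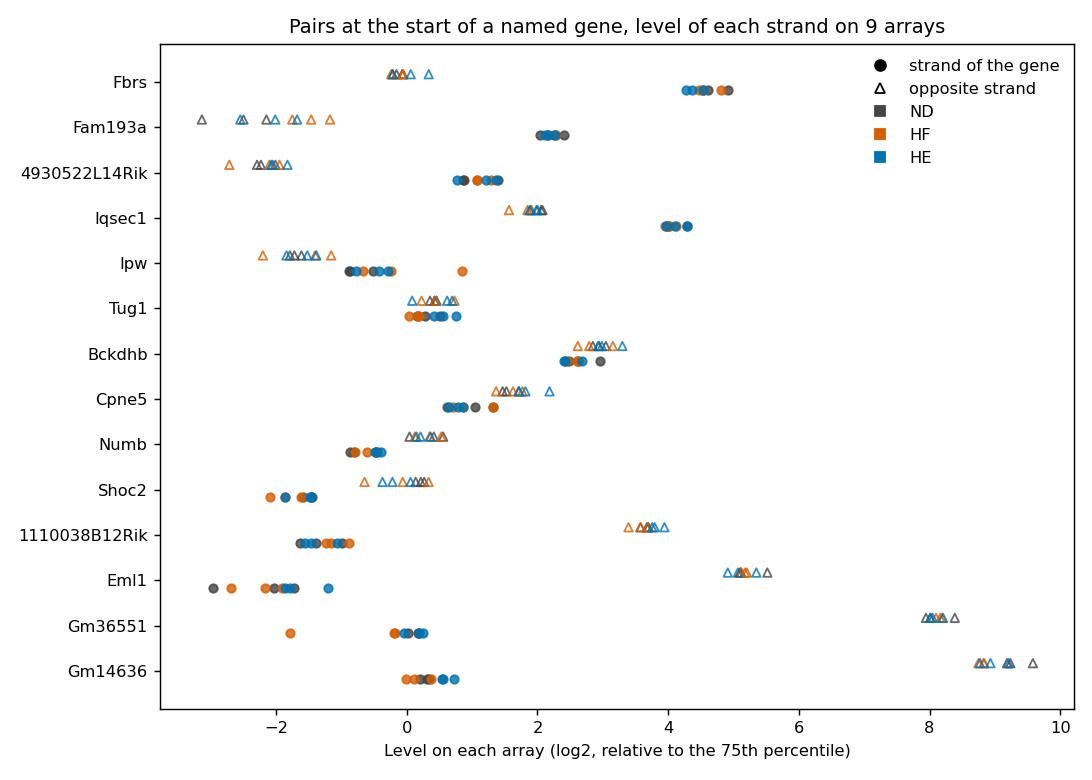
Level (log2, relative to the 75th percentile) of both strands on each of the 9 arrays, ordered by the gap between strands. Shown are the 14 pairs that matched a start window of 1 named gene. Filled circles read the strand of the gene and open triangles the opposite strand, with ND in grey, HF in orange and HE in blue. The triangles lie right of the circles on all 9 arrays in 7 pairs and left of them in 5.

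Across the 3 groups, no member probe reached an adjusted p under 0.05 in limma, nor did any of the 43948 tested probes (0% called in each comparison). At an unadjusted p under 0.05, HF against ND had 74 of 954 member probes, 7.76% against 9.81% of all tested probes. Of these 26 were higher in HF (2.73%, background 4.49%) and 48 lower (5.03%, background 5.32%). HE against HF had 133, 13.9% against 12.4%, with 71 higher (7.44%, background 6.26%) and 62 lower (6.50%, background 6.18%). HE against ND had 164, 17.2% against 14.7%, with 82 in each direction (8.60%, backgrounds 7.82% higher and 6.89% lower). The median difference of the members was -0.014, 0.025 and -0.00013 in the same order, and that of all tested probes 0.0012, -0.0030 and -0.017. Tested probes of the A_30_P series, from which most members come, had medians of -0.049, 0.053 and -0.016. The 3 comparisons share groups, and the member shares were near the background. In bulk tissue, fewer cells of a type and less RNA per cell cannot be told apart. With the slide as a block, the members' shares were 4.61%, 11.3% and 8.18%, against 6.10%, 11.6% and 7.78% of all tested probes. No HE array shared a slide with an ND array, so in HE against ND without the block, group and slide cannot be told apart. With the block, that comparison rests on HF replicate 1 beside the ND arrays and HF replicates 2 and 3 beside HE arrays. Blocked or within the slide, HF against ND rests on HF replicate 1 as its only HF array beside ND arrays. That array had the fewest detected probes of its group. In that blocked fit 25 of all tested probes passed the adjusted threshold, and 1 of them was a member, A_55_P2172934 of the repeat pair (limma, -1.91 ± 0.16, adjusted p = 0.038, against -0.85 and 0.51 without the block).

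The 2 strands of a pair showed little joint difference between groups. Over the 477 pairs, the difference of 1 strand and that of its partner correlated at r = 0.07 in the HF minus ND values, 0.17 in HE minus HF and 0.02 in HE minus ND. On the same strand the values were 0.54, 0.57 and 0.54. Both strands had the same sign in 246 pairs (51.6%), 278 (58.3%) and 242 (50.7%), where 50% of all possible pairs of tested probes did. For same-strand pairs these shares were 71.6%, 75.8% and 71.3%. With the slide as a block, the opposite-strand correlations were 0.01, 0.20 and 0.09, and the same-strand ones 0.29, 0.54 and 0.40. Within slides the opposite-strand values were 0.01 for HF against ND and 0.20 for HE against HF. With this layout of slides these are the same estimates as with the block, so they are no second check. These correlations describe pairs that share the 9 arrays.

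Array by array, the level of a strand followed its partner weakly. The correlation over the 9 arrays had a median of 0.19 over pairs, and it was above 0 in 65.0%. After group means were removed the median was 0.22. For same-strand pairs the medians were 0.60 and 0.55. A value over 0.7 was reached by 59 of the 477 pairs and by 528 of the 1309 same-strand pairs. Such correlations were not computed for unrelated tested probes, so these values have no background and are not read as a trait of the pairs. Longer overlap did not go with a higher value. Pairs sharing 54 to 60 bases had a median of 0.13 and those sharing 30 to 37 bases 0.25.

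**Figure D5:**
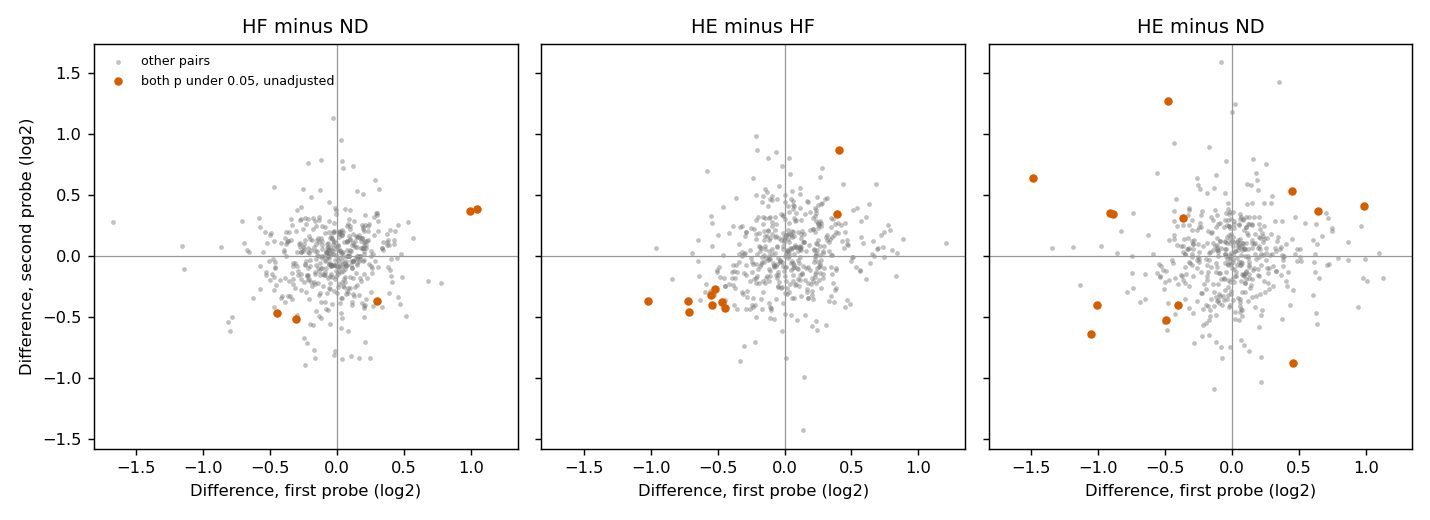
Difference between groups (log2) of the first probe against that of the second, for the 477 opposite-strand pairs in each of the 3 comparisons. Orange points are pairs with both probes at an unadjusted p under 0.05, numbering 5, 10 and 13 from left to right, and no point passed an adjusted threshold.

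Both probes had an unadjusted p under 0.05 in 5, 10 and 13 pairs, or 1.05%, 2.10% and 2.73%. Over all possible pairs of tested probes the shares were 0.96%, 1.55% and 2.17%. In HF against ND, 2 pairs had both strands higher, 2 both lower and 1 opposite. In HE against HF, 2 were both higher, 8 both lower and 0 opposite. In HE against ND, 3 were both higher, 4 both lower and 6 opposite. All possible pairs of tested probes were not split by direction, so these splits have no background and are not read as results about strands. No probe of these pairs passed the adjusted threshold, and the values below are descriptions of single pairs named by p. For HE against ND, A_30_P01018496 of a both-lower pair and A_30_P01027883 of an opposite pair met the detection rule through ND alone. These dim probes therefore had to be lower in HE. A_30_P01031294, of another opposite pair, was detected on no HE array.

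Both readings were lower in HE than in HF in A_30_P01028527 and A_30_P01028961, which share 48 bases.
A_30_P01028527: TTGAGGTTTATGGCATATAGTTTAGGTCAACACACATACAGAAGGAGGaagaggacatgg
A_30_P01028961: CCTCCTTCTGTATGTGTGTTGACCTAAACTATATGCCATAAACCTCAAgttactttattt
A_30_P01028527 read 0.27, 0.23 and 0.43 in ND, 0.21, 0.40 and 0.26 in HF, and -0.36, -0.55 and -0.37 in HE. A_30_P01028961 read 3.06, 2.76 and 2.74 in ND, 3.01, 3.06 and 3.10 in HF, and 2.64, 2.55 and 2.59 in HE. On both strands all 3 HE values lay below all 6 others. HE was below HF by 0.71 ± 0.12 and by 0.46 ± 0.12 (limma, unadjusted p = 0.00023 and 0.0045, adjusted p = 0.22 and 0.33), and A_30_P01028527 minus A_30_P01028961 was -2.54 ± 0.24 in ND, -2.77 ± 0.09 in HF and -3.02 ± 0.07 in HE (SD, n = 3). With the slide as a block the differences were -0.78 and -0.48. A_30_P01020454 and A_30_P01022383 had HE below HF by 0.44 ± 0.14 and 0.43 ± 0.12. All HE values of both lay below all ND and HF values, and the HE minus HF value of their strand difference was -0.01 ± 0.15.

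Pairs with both strands higher numbered 2, 2 and 3 in the 3 comparisons. A_30_P01028048 and A_30_P01030878, which share 59 bases, followed each other over the 9 arrays at r = 0.94. The first read 5.17, 5.20 and 5.39 in ND, 5.35, 5.49 and 5.06 in HF, and 5.74, 5.89 and 5.47 in HE. The second read 1.46, 1.68 and 1.81 in ND, 1.86, 1.97 and 1.72 in HF, and 2.22, 2.47 and 1.87 in HE. All HE values of the first were above all its ND values, those of HF overlapped with both, and the strand gap of 3.52 had an SD of 0.11. HE exceeded ND by 0.45 ± 0.16 and 0.54 ± 0.17 (limma, adjusted p = 0.26 and 0.23). For HF against ND, A_30_P01018409 was higher by 1.04 ± 0.17 with its partner A_30_P01018769 higher by 0.39 ± 0.14 (adjusted p = 0.33 and 0.46). A_30_P01018409 was above background on 1 array of each group, so most of its values lie below detection.

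The difference between strands, taken within each array and so free of scaling between arrays, was tested over all 878 pairs. At an unadjusted p under 0.05, HF and ND differed in 53 of 477 pairs (11.1%, against 22.6% of the 878). HE and HF differed in 73 (15.3%, against 15.9%), and HE and ND in 109 (22.9%, against 22.7%). An alternative added after the data were seen took 1 pair from each set of pairs that share probes. Its shares were 10.6%, 15.4% and 22.4%. All 477 member pairs are in it, each as its own set, so these shares had to lie close to those of the members. The 878 pairs also include the 477. After adjustment over the 878, 13 member pairs passed for HF against ND, where 15.8% of the 878 passed, and 0 passed in the other comparisons (0% of the 878 in each). The 878 pairs form 540 sets that share no probe, and 1 set of 132 pairs alone held 118 of the 139 that passed for HF against ND. With 1 pair from each set, none of the 13 passed, and the lowest adjusted p of a member pair was 0.091. None passed either with the slide as a block, where the comparison rests on 1 HF array. Leaving out single arrays gave 0 pairs without any 1 ND array, HF replicate 2 or HF replicate 3, 21 without HF replicate 1, and 12 to 16 without an HE array.

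The pair with the smallest p for HF against ND was A_30_P01019781 and A_30_P01024643, which share 49 bases.
A_30_P01019781: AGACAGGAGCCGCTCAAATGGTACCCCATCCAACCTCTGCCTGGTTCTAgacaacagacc
A_30_P01024643: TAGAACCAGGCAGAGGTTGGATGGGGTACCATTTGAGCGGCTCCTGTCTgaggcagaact
A_30_P01019781 read 2.79, 3.13 and 2.78 in ND, 2.75, 3.18 and 3.07 in HF, and 3.39, 3.58 and 3.25 in HE. A_30_P01024643 read -2.10, -1.90 and -1.99 in ND, -2.91, -2.82 and -2.71 in HF, and -2.19, -1.72 and -1.91 in HE. It was above background on all ND arrays, on no HF array and on 2 HE arrays. The first strand overlapped between ND and HF, and all HF values of the second lay below all others. The gap between strands was 4.90 ± 0.13 in ND, 5.82 ± 0.18 in HF and 5.35 ± 0.22 in HE (SD, n = 3). For the dim strand, the ND mean was 1.68-fold and the HE mean 1.74-fold above HF. Here HF values under the lowest detected signal of their array were set to it. The fitted differences had adjusted p = 0.35 and 0.22 (limma). The change of the gap from ND to HF was 0.92 ± 0.16 (limma, adjusted p = 0.024 over 878 pairs and 0.091 over 540), 0.76 with the slide as a block and 0.40 with normexp.

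In A_30_P01032092 and A_30_P01033360, shown above, the brighter strand was the one without overlap. A_30_P01032092 read 2.24, 3.19 and 2.41 in ND, 1.53, 1.72 and 1.98 in HF, and 1.50, 1.05 and 1.73 in HE. A_30_P01033360 read -1.49, -0.86 and -1.55 in ND, -1.38, -1.09 and -1.20 in HF, and -1.04, -1.22 and -1.42 in HE. All ND values of the first lay above all HF and HE values, and the second overlapped in all groups. The gap was 3.91 ± 0.16 in ND, 2.97 ± 0.19 in HF and 2.65 ± 0.45 in HE. It was smaller in HF by 0.95 ± 0.22 (limma, adjusted p = 0.024 over 878 pairs and 0.19 over 540). In HE it was smaller than in ND by 1.26 ± 0.22 (adjusted p = 0.10 over 878 pairs and 0.069 over 540).

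The other pairs of HF against ND named by p followed no single pattern. In A_30_P01024885 and A_30_P01031866 the bright strand was lower in HF by 0.58 ± 0.15 and the dim one higher by 0.31 ± 0.17. In A_30_P01025308 and A_30_P01029317 the dim strand was lower by 0.71 ± 0.26 and the bright one higher by 0.28 ± 0.14. In the CA and TG repeat pair A_55_P2004806 and A_55_P2028570 the strands went in opposite directions, by 0.30 ± 0.13 and -0.37 ± 0.12. At Fam193a the opposite strand, A_30_P01021714, read -2.15, -2.50 and -3.13 in ND, -1.75, -1.46 and -1.17 in HF, and -2.01, -1.68 and -2.55 in HE, while the gene's own strand differed by -0.03 ± 0.13 between HF and ND. All HF values of A_30_P01021714 lay above all ND values, but it was above background on 2 ND, 2 HF and no HE arrays. Signal below detection enters the fitted gap, which was smaller in HF by 1.16 ± 0.34 (limma, adjusted p = 0.046 over 878 pairs and 0.27 over 540), by 0.91 with the slide as a block and by 0.31 with normexp.

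For HE against HF, the smallest p was that of A_30_P01024672 and A_30_P01031294. The bright A_30_P01024672 read 1.24, 1.20 and 1.46 in ND, 1.56, 1.55 and 1.73 in HF, and 1.76, 1.87 and 1.63 in HE. The dim A_30_P01031294 read -3.05, -2.42 and -2.14 in ND, -1.93, -2.15 and -1.88 in HF, and -4.02, -3.08 and -3.15 in HE. It was above background on 2 ND arrays, 1 HF array and no HE array, so most of its values lie below detection. All its HE values lay below all others. The gap was larger in HE than in HF by 1.57 ± 0.28 (limma, adjusted p = 0.11 over 878 pairs and 0.14 over 540), a size that rests on signal below detection and was 0.29 with normexp.

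In A_55_P2100194 the dim strand read -1.31, -1.95 and -1.85 in HE against -0.82, -0.58 and -0.82 in HF, with its partner A_55_P2137121 differing by 0.06 ± 0.16. In mmu_22432_PI428960544 the dim strand read -1.08, -0.66 and -0.73 in HE against -1.81, -1.65 and -1.50 in HF, with its partner mmu_30508_PI428960544 differing by -0.16 ± 0.21. The HE values did not overlap with the HF values in either. A_30_P01025984 read -0.57, -0.50 and -0.78 in HF and 0.10, 0.80 and 0.21 in HE, and its partner A_30_P01020839, which shares 53 bases, overlapped between these groups. In these 3 pairs the groups were apart on 1 strand, and none passed limma's test after adjustment (adjusted p = 0.25, 0.29 and 0.29 over 878 pairs).

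For HE against ND the strands went in opposite directions in 6 of the 13 pairs with both probes at an unadjusted p under 0.05. Of all tested probes, 7.82% were higher and 6.89% lower at that threshold, and their possible pairs were not split by direction. A_30_P01024144 read 2.86, 2.95 and 2.43 in ND, 2.52, 2.40 and 2.52 in HF, and 2.36, 2.01 and 2.45 in HE. Its partner A_30_P01031708, with 49 shared bases, read -0.59, -0.85 and -1.02 in ND, -1.11, 0.14 and -0.29 in HF, and 0.66, 0.41 and 0.29 in HE. HE and ND overlapped on the first strand at 2.43 and 2.45, and did not on the second. The gap was 3.57 ± 0.20 in ND, 2.90 ± 0.68 in HF and 1.82 ± 0.30 in HE. It was smaller in HE than in ND by 1.75 ± 0.31 (limma, adjusted p = 0.10 over 878 pairs and 0.069 over 540), and by 0.83 with the slide as a block. ND and HE arrays shared no slide, so blocked values of HE against ND run through the HF arrays. In A_30_P01029492 and A_30_P01030822, the pair level on average, the first strand was the brighter by 0.65 ± 0.17 in ND and the second by 0.58 ± 0.54 in HE, with HF at -0.07 ± 0.16. The HE minus ND value of that gap was -1.23 ± 0.24 (adjusted p = 0.10 over 878 pairs), and -0.87 with the slide as a block.

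A strand detected on all arrays of 1 group and on none of another was found in 10 pairs, and in each it was the dimmer strand. These are 1.05% of member probes, and 1.04% of all tested probes did the same, so the share was that of the background. A_30_P01027883 read -1.88, -1.62 and -1.85 in ND, -2.61, -4.12 and -3.65 in HF, and -3.83, -3.30 and -2.68 in HE, detected on 3, 0 and 0 arrays. Its partner A_30_P01030579 was detected on all 9, at -1.32 to -1.09 in ND, -1.27 to -0.55 in HF and -0.66 to -0.42 in HE. A_30_P01027883 met the detection rule through ND alone and so had to be higher there. As a description, the ND mean was 2.52-fold above HF and 1.85-fold above HE. A_30_P01018496 was detected likewise on 3, 0 and 0 arrays and chosen through ND in the same way. Its ND mean was 2.21-fold above HF and 1.70-fold above HE. In these ratios, values of the undetected group under the lowest detected signal of their array were set to it. The spread between arrays is not included. By the same measure, A_30_P01019924 and A_66_P105874 were 2.16-fold and 1.51-fold higher in ND than in HF, and the second also met the rule through ND alone. The partner of each of these 4 probes was detected on all 9 arrays. Detection was called by the scanner software on each array, and HF replicate 1 and HE replicate 2 had the fewest calls over all tested probes.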

How the data were processed

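Labelled cRNA of mouse aorta was hybridised to 1-colour Agilent arrays and read by the authors. The submitters' processing notes name Agilent Feature Extraction 10.7.1.1. Spot intensity in the deposited files is linear, with background subtracted and spatial trend removed, per the file headers. The authors also deposited a log2 value table, used as an alternative. Genome build and gene names are not given in the sources used here.

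Spots of a probe were averaged as log2, without control spots and outlier flags, and each array's 75th percentile was subtracted. A probe was detected when at least 50% of its spots were well above background. Differences were tested with limma 3.58.1 (R 4.3.3) over 43948 probes and over 878 strand differences, 9 arrays in 1 fit (6 residual degrees of freedom), with Benjamini-Hochberg adjustment and a threshold of 0.05. Two-sided p-values are given. Error terms are SD over arrays or limma's SE. Pairs were named by size of strand difference, by smallest p, by detection and by sequence match. Members, lists and rules were chosen with earlier results of these data known. The search and the fits were tested on simulated data. The number of arrays limits the precision. Python 3.11.15, pandas 2.3.3 and matplotlib were used.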

Additional observations from a re-analysis of the deposited data

How the results depend on the processing

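The median size of the strand difference (1.98) was 1.28 under normexp, 1.83 with both probes detected on all 9 arrays, 2.30 with 45 or more shared bases, 2.19 over the 38 pairs left when the minimum overlap was 60 bases, and 1.56 over all 878 pairs, and 1.95 to 2 without single arrays. The cause of these and the following shifts was not tested. The share of member probes at an unadjusted p under 0.05 for HF against ND was 12.7% with array weights, 4.61% with the slide as a block, 4.82% within 1 slide and 2.63% for pairs sharing all 60 bases, and 4.82% to 13.6% without single arrays. The share of all tested probes moved with it, to 14.1% (array weights), 6.10% (slide block), 5.40% (within 1 slide) and 6.22% to 13.7% (without single arrays). For HE against HF the members' share was 7.97% to 14.7% without single arrays (all probes 7.71% to 13.2%), and for HE against ND 8.18% with the slide as a block (7.78%) and 11.7% to 20.6% without single arrays (9.77% to 18.2%). The share of pairs whose strand difference varied was 23.3% (array weights) and 22.6% (all pairs) for HF against ND, 7.89% (all 60 bases) for HE against HF, and 12.8% (slide block) and 13.2% (all 60 bases) for HE against ND, and without single arrays 7.55% to 17.8%, 10.1% to 18% and 14.5% to 27.0%.

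The correlation of the 2 strands for HF against ND was 0.126 (detected on all arrays), 0.00972 (slide block, and within 1 slide), 0.0198 (45 or more bases), -0.0578 (all 60 bases) and -0.138 (all pairs), and 0.0014 to 0.123 without single arrays. For HE against HF it was 0.117, 0.205 (slide block, and within 1 slide), 0.218, 0.236 and 0.0861 in the same order, and 0.125 to 0.218 without single arrays. For HE against ND it was -0.0394 (detected on all arrays), 0.0924 (slide block) and 0.0666 (all 60 bases), and -0.0248 to 0.133 without single arrays. The 13 member pairs of HF against ND past the adjusted threshold were 6 (detected on all arrays), 46 (array weights), 0 (slide block), 0 (within 1 slide), 7 (45 or more bases), 1 (all 60 bases), 139 of 878 (all pairs) and 0 (1 pair per set sharing probes), and 0 to 21 without single arrays. For HE against ND 15 passed under normexp and 1 when only the 2 groups were fitted, and 0 to 1 without single arrays, as for HE against HF. With the replicate block, 0 pairs passed for HF against ND; the shares of member probes were 5.97%, 11.6% and 14.3%, and those of strand differences 10.5%, 14.5% and 21.4%. Arrays of the same replicate number in different groups had correlations of deviations of -0.25 to 0.14. Differently numbered arrays were not set beside them, so whether replicate numbers pair the samples was not settled. Quantile scaling, the array median, the percentile over detected probes, the authors' table, and the trended and robust prior changed none of these counts by over 1.5 times. Of all tested probes, 4, 12 and 1 passed the adjusted threshold under normexp in the 3 comparisons, and 3 for HE against HF with array weights, a trended prior or detection on all arrays, and none of these was a member. Probe binding, dim spots and 3 arrays a group limit all values.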
